A study of Bos taurus with 34 samples.

Results

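Core circadian clock genes were examined in cattle liver carrying 0 or 1 copy of the SLICK1 allele of PRLR, the prolactin receptor gene. The genes were a list of 10: ARNTL, CLOCK, NPAS2, PER1, PER2, PER3, CRY1, CRY2, NR1D1 and DBP. They were matched by symbol in the authors' deposited comparison of slick with free animals, which holds 14161 genes, and 9 of the 10 had a row there. No row carried the symbol PER3, and no gene of that name was found in the annotation of the count tables, so PER3 is not analysed here. The Ensembl IDs of the other 9 were present in both count tables.

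The series has 34 liver samples, all labelled as Senepol in breed. By its name the comparison concerns the TruSeq samples, of which 18 are labelled, taken from daughters of 2 bulls carrying the allele, Blanco and Lone Ranger. SLICK daughters had inherited 1 copy of the allele, and there were 5 from each bull. FREE daughters had inherited 0 copies, and 7 were by Lone Ranger against 1 by Blanco. These numbers are those of the labels, and that the comparison was made on exactly these 18 animals could not be checked, since 1 animal named in it is not in the TruSeq count table. Genotype and sire are therefore partly tied together, and the sources used here do not say whether sire was a term of the authors' model. The other 16 samples were prepared with a SMARTer kit, 5 from carriers of 1 copy (S1) and 11 from carriers of 2 copies (S2). Age, time of day at sampling and feeding are not given in the labels used here.

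The circadian clock is a feedback loop of transcription that runs in nearly every cell and, in liver, follows feeding, body temperature and glucocorticoid rhythms as well as light. ARNTL (also called BMAL1) pairs with CLOCK or NPAS2 and switches on the PER and CRY genes, NR1D1 and DBP. PER and CRY proteins then silence that pair, and NR1D1 (REV-ERB alpha) silences ARNTL. In mammalian liver the ARNTL transcript therefore peaks about opposite to NR1D1, DBP and the PER genes. Livers taken at different times of day can thus differ in opposite directions in the 2 arms, though not every pair of times need do so.

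Single libraries were not used, because their columns are named by animal numbers that no sample label holds. Whether animals differed in opposite directions in ARNTL and in PER or NR1D1 was not followed from library to library either. That question needs no sample label, only the library values, which were deposited but not used, and it was not tested. S2 against S1 is not analysed here. What remains is the difference between the genotypes, its average level, and the residual spread implied by the authors' F test, from which a standard error (SE) was derived for each log2 fold change (log2FC). Positive values mean higher in SLICK, as read from the name of the table.

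NPAS2 was the most abundant core clock transcript and CLOCK, which can take the same place beside ARNTL, the least abundant. NPAS2 averaged 8.19 log2 CPM (a log2 count scaled to the size of the library) and CLOCK 1.52 log2 CPM by the authors' deposited table. Divided by gene model length, NPAS2 stood at 5.87 log2 CPM per kb, above 93.04% of all genes, and CLOCK stood at -0.36, above 19.7%. Per length, CLOCK was 75.03-fold below NPAS2. The repressor PER1 came next at 5.13 log2 CPM per kb. It was followed by DBP at 4.66, NR1D1 at 3.94 and CRY2 at 3.46 log2 CPM per kb. ARNTL (1.81), PER2 (1.15) and CRY1 (0.57) lay lower on the log2 CPM per kb scale, all below the middle of the table. These are averages over libraries whose spread in level is not known here, so neighbours in this order cannot be called different.

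**Figure D1:**
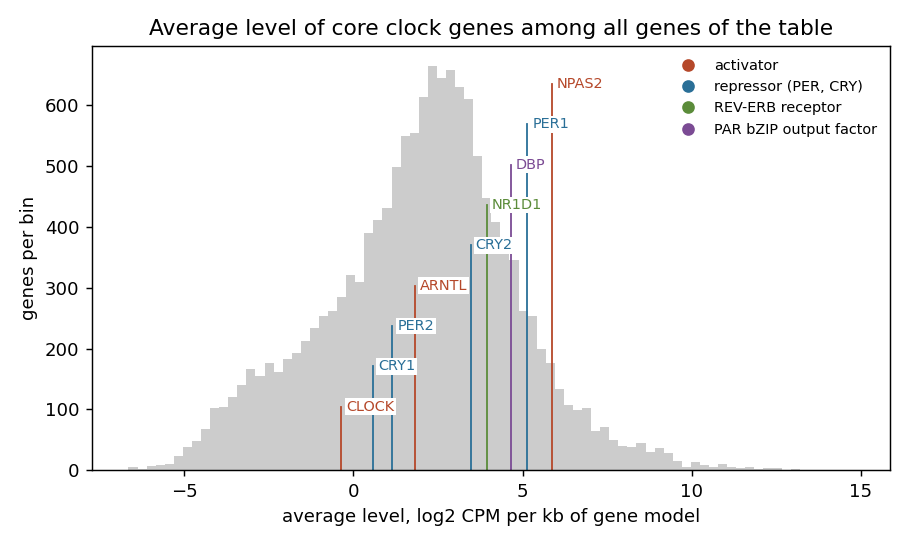
Average level of the 9 measured core clock genes (coloured lines, by role; line height only separates the labels) over the histogram of all 14161 genes. The x axis is the average log2 CPM per kb of gene model and the y axis, which holds for the histogram, is the number of genes per bin; NPAS2 lies at 5.87 and CLOCK at -0.36.

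In SLICK against FREE liver, 0 of the 9 measured core clock genes passed an adjusted p of 0.05, against 0.501% of all genes (71 of 14161). The largest differences were in PER1, CRY2 and DBP, 3 genes that the ARNTL pair switches on, each with a point value of at least 1.48-fold that did not pass. At an unadjusted p under 0.05 these 3 of 9 stood out, all with positive values, against 16.0% of all genes in either direction and 7.22% with positive values. The median log2FC of the 9 genes was 0.16 by the authors' deposited table, beside -0.01 over all genes. Positive values were found for 7 of the 9, beside 48.2% of all genes.

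Among the activators, no difference was resolved. ARNTL, the partner that both CLOCK and NPAS2 need, lies on chromosome 15 of ARS-UCD1.2 from 39286444 to 39394387 (ENSBTAG00000013029). Its log2FC by the authors' deposited table was 0.03, with an implied SE of 0.31 and an approximate 95% interval of -0.62 to 0.68 (adjusted p = 0.978). CLOCK, a DNA-binding partner with acetyltransferase activity, lies on chromosome 6 from 70874084 to 70978580. The authors' deposited table gave CLOCK a log2FC of -0.11 (SE 0.14, interval -0.40 to 0.18, adjusted p = 0.783). NPAS2, its paralog, lies on chromosome 11 from 5846769 to 5977543, and its value by the authors' deposited table was 0.15 (SE 0.09, interval -0.04 to 0.33, adjusted p = 0.465). The ARNTL interval reaches a 1.5-fold difference both ways, so it holds a value as large as that of CRY2 in either direction, whereas that of NPAS2 ends well below it.

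Of the repressors, PER1 and CRY2 had the largest values and CRY1 the opposite sign. PER1, which also responds directly to glucocorticoids, lies on chromosome 19 from 27778418 to 27788197 (ENSBTAG00000003889). It had a log2FC of 0.68 by the authors' deposited table, higher than that of any other member (SE 0.20, interval 0.26 to 1.09, unadjusted p = 0.00290, adjusted p = 0.103). By p it ranked 419 of 14161, and 1.12% of all genes had a value at least as high. CRY2, which blocks the ARNTL pair together with PER proteins, lies on chromosome 15 from 75879778 to 75915413 (ENSBTAG00000021223). For CRY2 the authors' deposited table gave 0.59 (SE 0.17, interval 0.22 to 0.96, unadjusted p = 0.00323, adjusted p = 0.107), at rank 448.

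PER2, on chromosome 3 from 117558885 to 117599971, had a positive value of similar size but far lower precision. Its log2FC was 0.45 by the authors' deposited table (SE 0.29, interval -0.15 to 1.05, adjusted p = 0.489). CRY1, the repressor that acts late in the cycle, lies on chromosome 5 from 70260351 to 70355222. The CRY1 value by the authors' deposited table was -0.13 (SE 0.17, interval -0.48 to 0.21, adjusted p = 0.776). The interval of CRY1 ends below the point value of CRY2, although a test of the difference between these paralogs needs library values and was not made.

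NR1D1 and DBP, both classic targets of the ARNTL pair, had positive values, that of DBP being the higher, a difference that was not tested. NR1D1, the nuclear receptor that silences ARNTL, lies on chromosome 19 from 40389125 to 40397513 (ENSBTAG00000012178). Its log2FC by the authors' deposited table was 0.16 (SE 0.19, interval -0.23 to 0.55, adjusted p = 0.760). DBP, a PAR bZIP transcription factor that carries the rhythm to liver metabolism genes, lies on chromosome 18 from 55272313 to 55278976 (ENSBTAG00000006754). The authors' deposited table listed DBP at 0.57, or 1.48-fold (SE 0.20, interval 0.15 to 0.99, unadjusted p = 0.0111, adjusted p = 0.170). Exons of NR1D1 share 471 of 3656 bases with THRA on the opposite strand, and those of DBP share 369 of 1725 bases with CA11 on the same strand. How reads in shared bases were counted for the TruSeq libraries is not stated in the sources at hand, so both values are uncertain to that extent. THRA had a log2FC of 0.32 (adjusted p = 0.290) and CA11 one of -0.13 at an average of only -2.05 log2 CPM by the authors' deposited table.

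**Figure D2:**
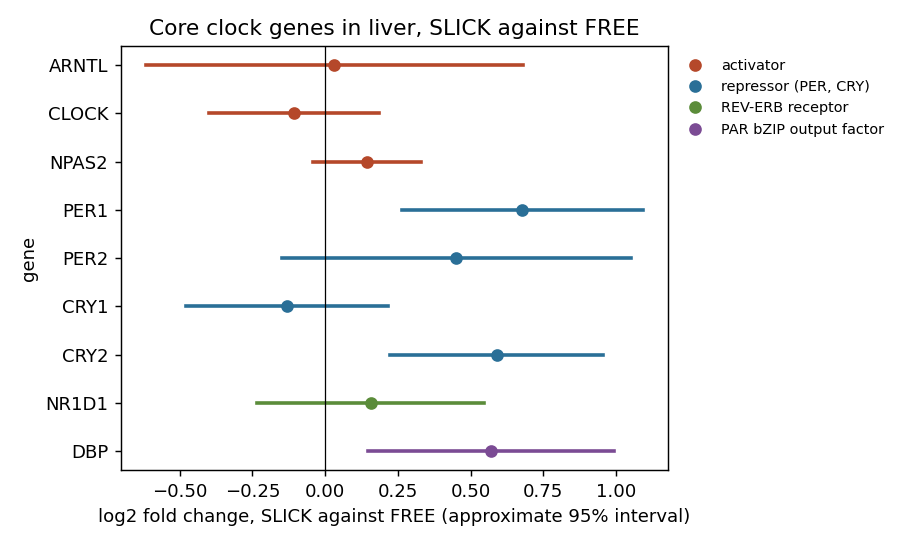
Log2FC of the 9 measured core clock genes in SLICK against FREE liver (points, coloured by role) with approximate 95% intervals derived from the authors' F. The intervals of PER1, CRY2 and DBP lie above 0 before adjustment, and those of the other 6 genes cross 0.

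Because time of day can move the arms of the loop in opposite directions, their group values were set side by side. The median log2FC of the targets and repressors PER1, PER2, CRY2, NR1D1 and DBP was 0.57 by the authors' deposited table, against 0.03 for ARNTL, CLOCK and NPAS2, a difference of 0.54. This gap has no error of its own, since genes measured in the same livers are not replicates. CRY1, which peaks late, was counted in neither arm. All 5 targets had positive values, the activators had mixed signs with CLOCK negative, and NR1D1, the gene most directly opposed to ARNTL, had 0.16. The ARNTL interval reached down to -0.62, which takes in an opposed difference of the size seen in CRY2 or DBP but ends just short of that of PER1. Sampling time itself is not recorded in the labels used here, and its part in these values was not tested.

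Of the 9 core clock genes, 6 had an implied SE above the 90th percentile of genes of like level. The SE reflects the residual spread between animals in the authors' model, whose terms are not known, and not the difference between the genotypes. Among genes within 0.5 log2 CPM of its own level, ARNTL had an SE higher than 97.7% of them. Its SE was 3.17 times the median of those genes, which was 0.10. For ARNTL both the log2FC (0.03) and F (0.01) were near 0, so the SE derived from them is less certain. PER2 was close to ARNTL, with an SE higher than 97.2% of like genes and 2.90 times their median.

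After these came DBP and 3 further members. DBP exceeded 94.8% of genes of like level, NR1D1 93.4%, CRY2 92.5% and PER1 92.1%, with SEs of 2.08 to 2.41 times the median. By construction 10% of genes of like level lie above the 90th percentile. CRY1 stood at 76.1%. The DNA-binding partners CLOCK and NPAS2 did not stand out, at 41.5% and 28.4%. The percentile was computed after the fold changes had been seen and is a description. A high spread was not particular to the clock: 10 of 15 glucocorticoid-linked genes and 4 of 12 temperature-linked genes also lay above the 90th percentile. PER1 is in the glucocorticoid list too and is among those 10. Which animals carried the spread, and whether ARNTL was low where PER or NR1D1 was high, needs the library values, which were not used here.

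**Figure D3:**
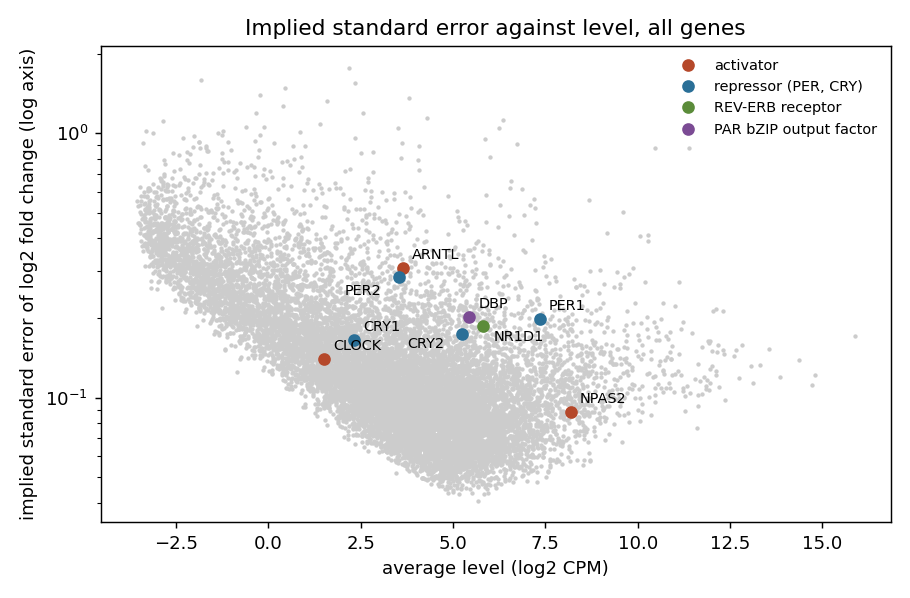
Implied SE of the log2FC (y axis, log scale) against the average level in log2 CPM (x axis) for all 14161 genes (grey) and the 9 measured core clock genes (coloured by role). ARNTL and PER2 lie near the upper edge at an SE of 0.31 and 0.29, while NPAS2 (0.09) and CLOCK (0.14) lie within the main cloud.

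The spread sets what could be called. The largest p that still passed in that deposited table of the authors was 2.27e-04. At its own SE, ARNTL would have needed a log2FC of 1.41 to reach that p, and PER2 one of 1.304. PER1 would have needed 0.90, DBP 0.92, NR1D1 0.85 and CRY2 0.79. NPAS2 would have passed with 0.40. A 1.5-fold difference in most core clock genes was therefore below what this comparison could call.

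Further genes of the clock network mostly had values close to 0. Of 29 listed, 26 had a row, and 0 passed an adjusted p of 0.05 in either direction, beside 0.501% of all genes. The median log2FC of the 26 was 0.01. At an unadjusted p under 0.05 there were 3 (11.5%), of which 2 were positive and 1 negative, beside 16.0% of all genes. Among the positive values was that of TEF, a PAR bZIP factor like DBP, with 0.40 (adjusted p = 0.313) by the authors' deposited table. The negative one was the PER kinase CSNK1E, with -0.21 (adjusted p = 0.286) by the authors' deposited table.

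Relatives of the core genes had these values. The second REV-ERB, NR1D2, had a log2FC of 0.11 (SE 0.17) and RORA one of 0.29 (SE 0.17) by the authors' deposited table. HLF, the third PAR bZIP factor, had 0.24 (SE 0.17) there, so that all 3 factors of that family were positive by the authors' deposited table and DBP the highest. The repressors BHLHE40 and BHLHE41 had -0.28 (SE 0.21) and -0.17 (SE 0.20), and CIART had 0.34 (SE 0.43), by the authors' deposited table. HDAC3, a deacetylase that works with NR1D1, had 0.13 (adjusted p = 0.419) by the authors' deposited table. NFIL3, which opposes the PAR bZIP factors, had no row, nor had ARNTL2 and RORB. Of these 26 genes, 6 had an SE above the 90th percentile for their level, NR1D2, TEF, HLF, BHLHE40 and CIART among them.

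Genes known to be rhythmic in mammalian liver were mixed. Of 28 measured genes, 0 passed an adjusted p of 0.05 in either direction, beside 0.501% of all genes. Of the 28, 21 were positive and 7 negative, and the median log2FC was 0.12. At an unadjusted p under 0.05 there were 8 (28.6%), 6 of them positive, against 7.22% of all genes, and 2 negative, against 8.79% of all genes. ALAS1, the first enzyme of haem synthesis, and POR, the electron donor of cytochromes P450, both depend on PAR bZIP factors in mice. Their log2FCs were 0.58 (SE 0.20, adjusted p = 0.154) and 0.37 (SE 0.12, adjusted p = 0.138) by the authors' deposited table. PPARA, a nuclear receptor of fatty acid metabolism, had 0.30 (adjusted p = 0.196) and the deubiquitinase USP2 had 0.66 (SE 0.26, adjusted p = 0.205) by the authors' deposited table. PPP1R3B, which targets a phosphatase to glycogen, had 0.61 (adjusted p = 0.171) and the triglyceride lipase PNPLA2 0.27 (adjusted p = 0.234) by the authors' deposited table. The 2 negative values with an unadjusted p under 0.05 belonged to KLF10, a transcription factor (-0.37), and the threonyl-tRNA synthetase TARS1 (-0.18). Both had an adjusted p of 0.0945 by the authors' deposited table. The values furthest from 0 in this list were also negative but imprecise. They were those of 2 genes named MT1E, at -1.53 (SE 0.84) and -1.09 (SE 0.95) by the authors' deposited table. MT2A had -0.65 (SE 0.62) there.

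Glucocorticoids set the phase of the liver clock and induce PER1. Of 15 genes linked to them, PER1 included, 0 passed in either direction, beside 0.501% of all genes. Of the 15, 11 were positive, and 6 (40.0%) had an unadjusted p under 0.05, beside 16.0% of all genes. TSC22D3, also called GILZ, had a log2FC of 0.43 (SE 0.12, adjusted p = 0.0876) by the authors' deposited table. KLF9 had 0.37 (adjusted p = 0.190), PDK4, a brake on glucose oxidation, 0.54 (adjusted p = 0.235), and the glucocorticoid receptor NR3C1 0.20 (adjusted p = 0.269) by the authors' deposited table. SGK1, an induced kinase, went the other way with -0.54 (adjusted p = 0.217) by the authors' deposited table. FKBP5, a sensitive target, had 0.54 with an SE of 0.43 (adjusted p = 0.604) by the authors' deposited table.

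The temperature-linked list held the cold-inducible CIRBP and RBM3 and, for the rest, heat shock or chaperone genes. Their point values lay within 0.234 log2 units of 0, some of them imprecise. All 12 genes were measured, and the median was -0.02. Of the 12, 0 passed in either direction, beside 0.501% of all genes. An unadjusted p under 0.05 was found for 0 of 12, beside 16.0% of all genes. Whether 0 of 12 differs from these shares was not tested. CIRBP, the cold-inducible RNA-binding protein whose rhythm follows body temperature, had a log2FC of 0.11 (SE 0.15, interval -0.21 to 0.43, adjusted p = 0.801) by the authors' deposited table. RBM3, its relative, had 0.02 (SE 0.08, adjusted p = 0.923) by the authors' deposited table. The smallest p of these 12 belonged to the chaperone HSP90AA1, at -0.15 (adjusted p = 0.766), followed by HSPD1 at 0.07 (adjusted p = 0.788) by the authors' deposited table. HSPH1 at -0.23 (adjusted p = 0.804) and HSPA4 at -0.07 (adjusted p = 0.824) completed the 5 with the smallest p, with CIRBP, by the authors' deposited table. HSPH1 had an SE of 0.33 and a wide interval of -0.92 to 0.45, so a small difference is not shown for it.

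The marker levels fitted the liver label, with ALB the highest gene of all markers at 15.9 log2 CPM by the authors' deposited table. Hepatocyte markers had positive values in 6 of 8 genes, with a median of 0.35, and bile duct markers negative ones in 6 of 6, with a median of -0.91 by the authors' deposited table. No marker passed an adjusted p of 0.05, beside 0.501% of all genes. At an unadjusted p under 0.05 there were 4 of 8 hepatocyte markers (50.0%), all positive, and 5 of 6 bile duct markers (83.3%), all negative, larger shares than the 33.3% of core clock genes and the 16.0% of all genes. Medians were 0.09 for 6 macrophage, 0.10 for 6 endothelial and -0.15 for 5 stellate cell markers, and 0.00 for 5 T and NK and 0.01 for 5 B and plasma cell markers. The medians were -0.40 for 3 neutrophil and -0.26 for 2 erythroid markers. The 2 erythroid markers went opposite ways, HBB with 0.65 and HBA with -1.17 by the authors' deposited table. Both had low averages, -0.29 and -2.22 log2 CPM, so their median describes neither. In bulk liver, fewer cells of a type and less RNA per cell cannot be told apart, and the part of these markers in the clock gene values was not tested.

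**Figure D4:**
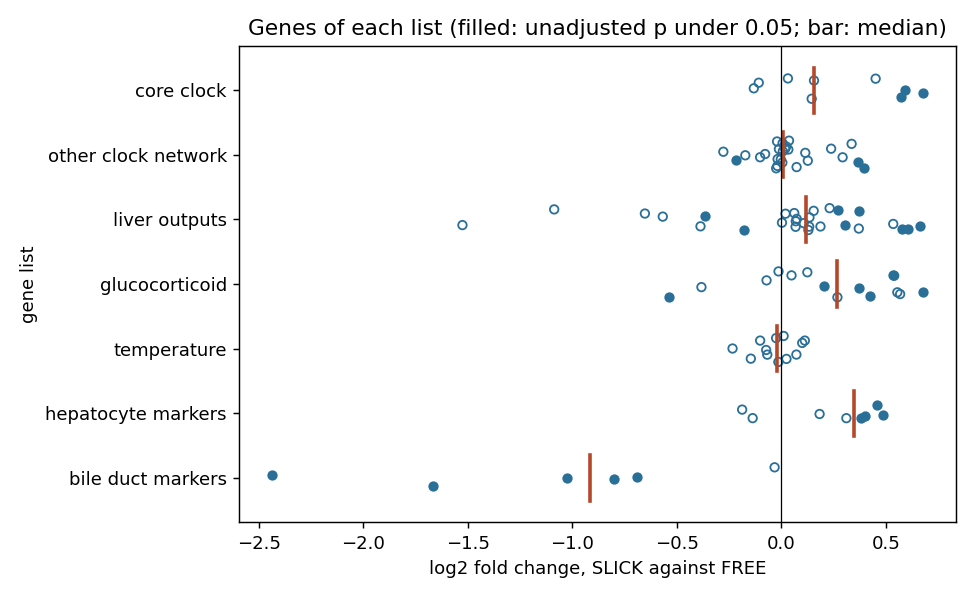
Log2FC (x axis) of each measured gene in 7 gene lists (rows). Filled points have an unadjusted p under 0.05 and bars mark the median, which is 0.16 for core clock genes, 0.27 for glucocorticoid-linked genes and -0.02 for temperature-linked genes; 0 genes shown pass an adjusted p of 0.05.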

How the data were processed

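Liver RNA was sequenced from TruSeq (18 samples) or SMARTer (16 samples) libraries, per the labels' protocols. Tools named in the submitters' processing notes, without their roles, are edgeR, HISAT2 2.1.0, Subread and featureCounts, with the build ARS-UCD1.2. The header of the SMARTer table names featureCounts 1.6.2 with Ensembl release 100 models, counting by strand and mapping quality of at least 10, per the file headers. That header does not describe the counting of TruSeq libraries.

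For each gene the authors deposited the p-value, unadjusted and adjusted, the F score, the log2 fold change and the mean log2 CPM, per the file headers. The other deposited value used, with no sample behind it, was the gene model length. Of 14246 rows, 85 repeated a gene, and 14161 genes were kept. The 70 library columns in 4 tables carry animal numbers that match no label and were not used, so depth per sample is not given. Of 18 animals named in the comparison table, 17 are in the TruSeq count table.

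The SE was the size of the log2 fold change divided by the square root of F, and the 95% interval used the 18.7 denominator degrees of freedom implied by F and p. This treats F as a squared ratio of estimate to error, an approximation for count models. Both steps were tested on simulated fold changes with normal errors, whose F was built as that squared ratio. The simulation therefore checks the calculation and cannot show whether the approximation holds for counts. Python 3.11.15, numpy 2.4.6, pandas 2.3.3, scipy 1.17.1 and matplotlib 3.10.9 were used. Members and lists were chosen with earlier results of these data known. Beside the members, the rule for naming took up to 5 genes with the smallest p of each further list, 12 clock, temperature and glucocorticoid genes whatever their values, and any that passed. PPARA, USP2, PNPLA2, NR3C1, MT1E, MT2A and the overlapping genes THRA and CA11 were named after their values were seen. Not every gene this rule took is reported here.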

Additional observations from a re-analysis of the deposited data

How the results depend on the processing

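The count of 0 core clock genes past the threshold was the same with a Benjamini-Hochberg adjustment over all genes of the table, over genes averaging at least 0 log2 CPM, and at a deposited adjusted p of 0.10. An unadjusted p under 0.05 gave 3. Among the 80 further genes of the clock, output, temperature and glucocorticoid lists, the count stayed 0 with the first 2 of these settings. It was 3 at a deposited adjusted p of 0.10 (TARS1, KLF10 and TSC22D3). Each setting was changed alone, and the count of core clock genes does not stay 0 when 2 are combined. With the Benjamini-Hochberg adjustment over all genes, PER1 had an adjusted p of 0.098, which is under 0.10. Over genes averaging at least 0 log2 CPM, PER1 had 0.0957 and CRY2 0.0991. The gap between targets and activators of 0.54 was 0.47 with means, 0.48 with CRY1 among the repressors and 0.61 without NPAS2. Subtracting the median of all genes, or of genes in the same level bin (1 of 10), moved single core clock genes by at most 0.10 log2 units and reversed 0 of 9. The count of 6 genes with a high SE was also 6 among genes within 0.25 and within 1 log2 CPM, alternatives chosen after seeing the data. No paired analysis was possible because the library columns carry no replicate numbers and match no label; leaving out single replicates was not run for the same reason. Precision is known from the authors' F only.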
